A study of Mus musculus with 37 samples.

Results

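The retinoid metabolism and receptor genes described here are 9 genes of the retinoic acid pathway, found by their symbols in the count table: Aldh1a1, Aldh1a2, Aldh1a3, Rara, Rarb, Rarg, Crabp1, Crabp2 and Cyp26b1. All 9 were found among the 24421 gene symbols of the table. They were measured by RNA-seq in 37 whole-tissue libraries of wild-type female BALB/c mice, an inbred laboratory strain. BBN, N-butyl-N-(4-hydroxybutyl)nitrosamine, is a carcinogen of the urinary tract that was given to 10 of the mice for 18 weeks, starting at an age of 6 to 7 weeks, and 3 mice received tap water. Ureters with cancer from BBN-treated mice (UT) gave 11 libraries, 2 of them from the right and left ureters of mouse 5, and ureters of the side without cancer (UN) gave 7 libraries, each from a mouse that also gave a UT library. Both ureters of the 3 untreated mice gave the 6 untreated ureter libraries (U). The bladders of the same 10 BBN-treated mice gave the BBN bladder group (BB), and those of the 3 untreated mice gave the untreated bladder group (B).

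Total counts were 9724542 to 16735797 per library in UT, 4675081 to 14973904 in UN, 12980008 to 18793560 in U, 3557697 to 15104379 in BB and 14348701 to 16617435 in B. UN 6, U 1R, BB 1, BB 3 and BB 4 had an RNA integrity number under 5 in the study's quality table. The study drew 10 of the 11 UT libraries, and UT 9, which it did not draw, was kept here. BB 6 was kept as a bladder library as titled, although its library name carries the tumor letter. Sums of 7 urothelial marker genes were 678 to 6908 CPM, the count of a gene per 1e+06 total counts of its library, in UT, 19.1 to 6070 in UN, 1330 to 2631 in U, 953 to 6586 in BB and 17997 to 18727 in B. UN 2 held the UN minimum, so this ureter library was nearly without urothelial transcripts. UT 4 held a sum of 1997 CPM over 6 kidney tubule genes, where the median of UT was 3.50.

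Retinoic acid is made from vitamin A in a pair of oxidation steps. Retinol dehydrogenases such as Rdh10 turn retinol into retinaldehyde, and the retinaldehyde dehydrogenases Aldh1a1, Aldh1a2 and Aldh1a3 turn retinaldehyde into retinoic acid. The small carriers Crabp1 and Crabp2 bind retinoic acid in the cytoplasm, Crabp2 delivers it to the nucleus, and Cyp26 enzymes such as Cyp26b1 degrade it. The nuclear receptors Rara, Rarb and Rarg pair with a retinoid X receptor (Rxr) and bind DNA at retinoic acid response elements, which are direct repeats of a short half-site. In urothelium, vitamin A deficiency is known to replace the specialized epithelium by keratinizing squamous epithelium.

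Rarb and the degrading enzyme Cyp26a1 are textbook examples of genes that retinoic acid itself turns on, and their promoters are shown because each held a direct repeat of this kind. The windows cover 250 bases before to 50 bases after the start of transcription in RefSeq, assembly GRCm38.p6. The Rarb window lies at chr14:16575427-16575726 on the minus strand, and the Cyp26a1 window at chr19:37697558-37697857 on the plus strand. Both are written 5′ to 3′ on the strand of the gene, with the half-sites in capitals.
Rarb: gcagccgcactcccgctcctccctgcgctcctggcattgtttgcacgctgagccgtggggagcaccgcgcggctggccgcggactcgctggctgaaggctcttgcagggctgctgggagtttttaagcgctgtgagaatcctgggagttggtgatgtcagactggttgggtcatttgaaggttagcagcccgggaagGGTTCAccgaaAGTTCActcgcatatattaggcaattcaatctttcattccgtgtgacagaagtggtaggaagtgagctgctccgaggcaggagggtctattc
Cyp26a1: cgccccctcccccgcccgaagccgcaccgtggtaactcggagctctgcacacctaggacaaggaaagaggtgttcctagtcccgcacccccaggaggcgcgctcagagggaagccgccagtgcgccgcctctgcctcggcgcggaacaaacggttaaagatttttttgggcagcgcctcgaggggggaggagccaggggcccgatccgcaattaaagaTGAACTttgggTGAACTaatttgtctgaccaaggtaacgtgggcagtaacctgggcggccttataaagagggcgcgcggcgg
The Rarb element read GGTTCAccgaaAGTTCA and lay 37 to 53 bases before the start, at chr14:16575513-16575529. In Cyp26a1 the element lay 16 to 32 bases before the start, at chr19:37697776-37697792, and read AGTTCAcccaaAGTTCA on the opposite strand.

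The search used the half-sites AGGTCA (in 16.3% of promoter windows), AGTTCA (in 13.99%), GGTTCA (in 10.4%) and GGGTCA (in 13.7%) in direct repeats with a spacer of 1, 2 or 5 bases, on both strands. Repeats with a spacer of 5 bases were found in 32 of 32851 promoter windows of the same length (0.0974%), those with a spacer of 2 in 0.268% and those with a spacer of 1 in 0.222%. Of the 9 genes, 7 had a promoter entry, and Aldh1a3 and Crabp2 had none. Among those 7, Rarb held a repeat and the windows of the other 6 did not hold these letters in this arrangement. Such a match describes the letters in the window and is not a measured binding site.

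**Figure D1:**
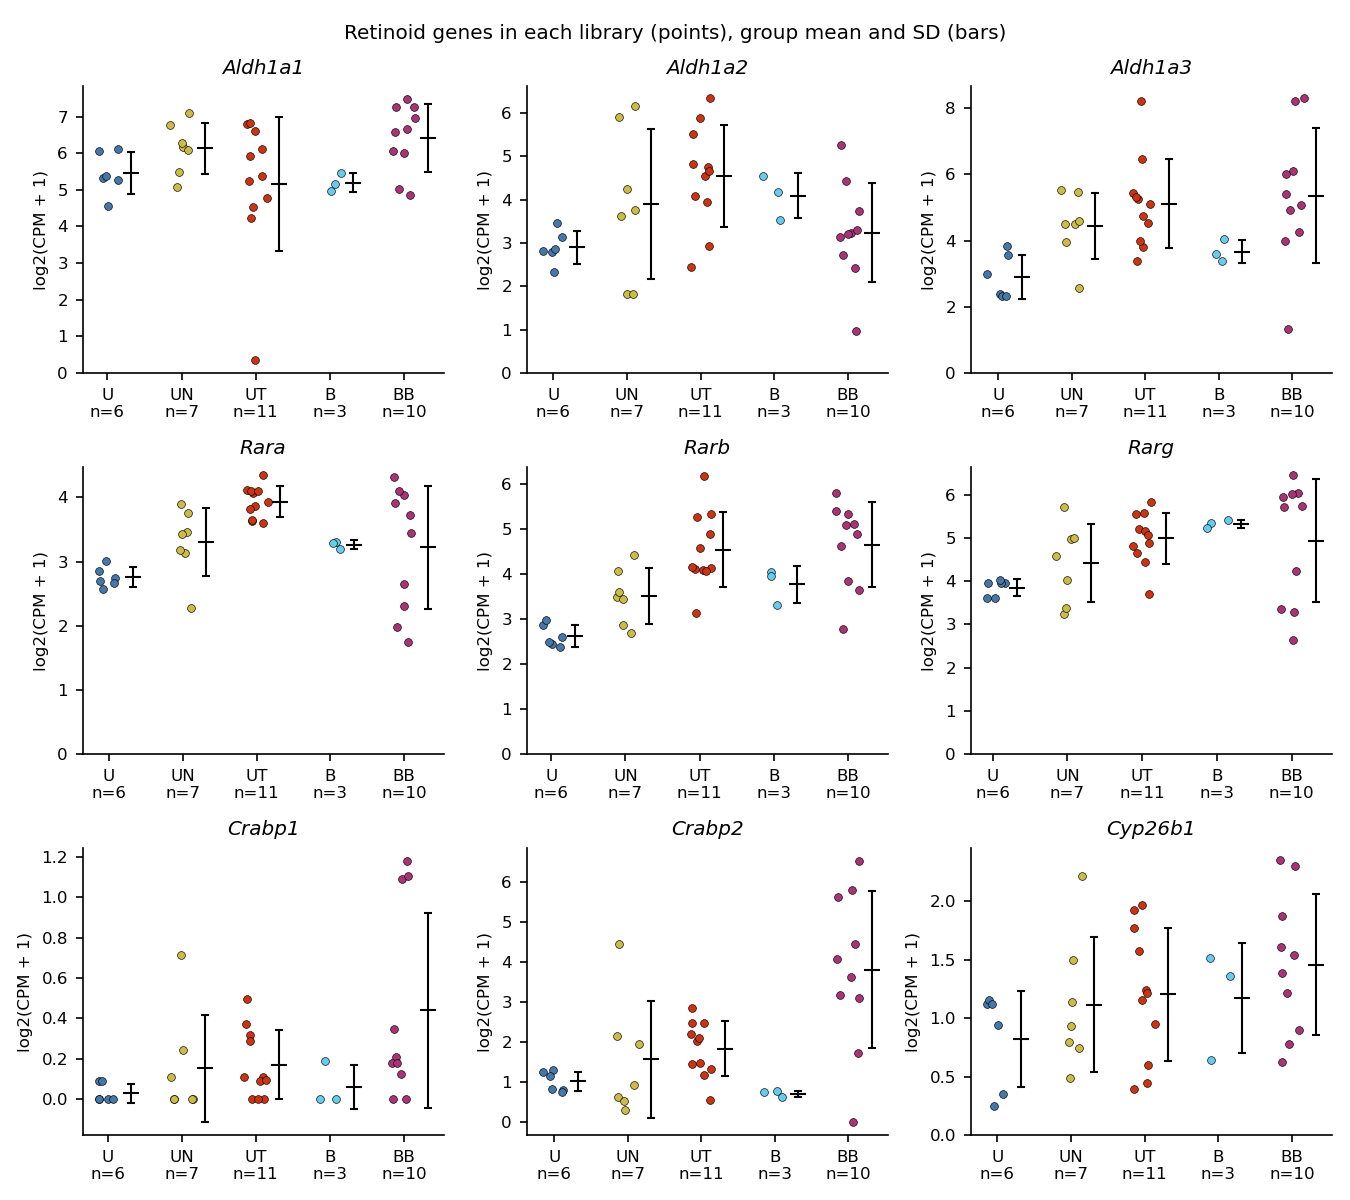
Level of each of the 9 genes as log2(CPM + 1) on the vertical axis, with 1 point for each of the 37 libraries in U, UN, UT, B and BB, and the mean with its SD as a bar. Rara and Rarb in UT lay wholly above U, while Crabp2 in BB ran from 0 to 90.5 CPM and spread more than in any other group.

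Several retinoid genes were higher in the ureters of BBN-treated mice than in untreated ureters, and none of the 9 fell. In UN against U, Aldh1a2, Aldh1a3 and Rarb rose by the rule used here, an edgeR adjusted p under 0.1 over all genes tested and a fold of at least 2. That is 3 of the 9 genes, against 13.7% of 15658 genes tested, of which 1950 were higher and 189 lower. In UT against U, Aldh1a2, Aldh1a3, Rara, Rarb and Rarg rose, which is 5 of the 9, against 30.9% of all genes tested. The median log2 fold change of the 8 genes tested in the ureter was 0.90 in UN against U and 1.11 in UT against U, where the medians of all genes tested were 0.13 and 0.11. Crabp1 had too few counts to be tested in the ureter. With the mouse as a random effect, which allows for ureters of the same animal, 0 of the 9 were called in UN against U, at 1.06 for Aldh1a2, 1.82 for Aldh1a3 and 0.97 for Rarb (adjusted p = 0.417, 0.136 and 0.241). Without the libraries of low RNA integrity, Aldh1a2 alone was called in UN against U, and Rara and Rarg in UT against U were at 0.949 and 0.994, under the 2-fold limit. With RNA integrity as a covariate they were at 0.932 and 0.753 in UT against U, and Rarg was at 0.910 with the random effect, in each case under that limit.

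In UT against UN, 0 of the 9 genes passed the rule, where 5.52% of all genes tested did. By edgeR, 2 of the 8 tested (Rara and Rarb) had an unadjusted p under 0.05, as had 3969 of the 15658 genes tested. DESeq2 called 1 of the 8, Rarb. The median log2 fold change of the 8 was 0.13 and that of all genes −0.02. With only UT and UN fitted, 0 genes of the whole table were called in place of 864, and with the mouse as a block in that fit 1 gene was, and 0 of the 9.

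In the bladder, Aldh1a1, Rarb and Crabp2 were higher in BB than in B, which is 3 of the 9, against 13.3% of 18050 genes tested. The median log2 fold change of the 9 genes was 1.34 and that of all genes 0.25. With only 3 untreated bladders, each of these calls was lost when any 1 of B 1, B 2 or B 3 was left out, although the log2 fold changes stayed at 1.58 to 1.83 for Aldh1a1, 1.11 to 1.46 for Rarb and 5.51 to 5.67 for Crabp2. The adjusted p then ran from 0.117 to 0.279. Between the untreated organs, U against B, which come from the same 3 mice, 0 of the 9 were called, against 14.9% of all genes. With only U and B fitted, 2 of the 9 were called, Rarg (adjusted p = 2.31e-06) and Crabp2 (adjusted p = 0.0220), and 4590 genes in all in place of 2802. Adding the mouse as a block to that fit called the same 2 (adjusted p = 1.12e-05 and 0.0383) and 4602 genes. For the change with BBN in UN against U minus that in BB against B, 0 of the 9 were called, against 2.06%. In both of these last comparisons, in the fit of all 4 groups, 2 of the 9 had an unadjusted p under 0.05 and DESeq2 called 1, Rarg between the organs and Crabp2 for the change with BBN. Of all 18786 genes tested, 4304 between the organs and 2245 for the change with BBN had an unadjusted p under 0.05. The comparisons share libraries, UN and U in the ureter and U and B between the organs, so their values are not independent.

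**Figure D2:**
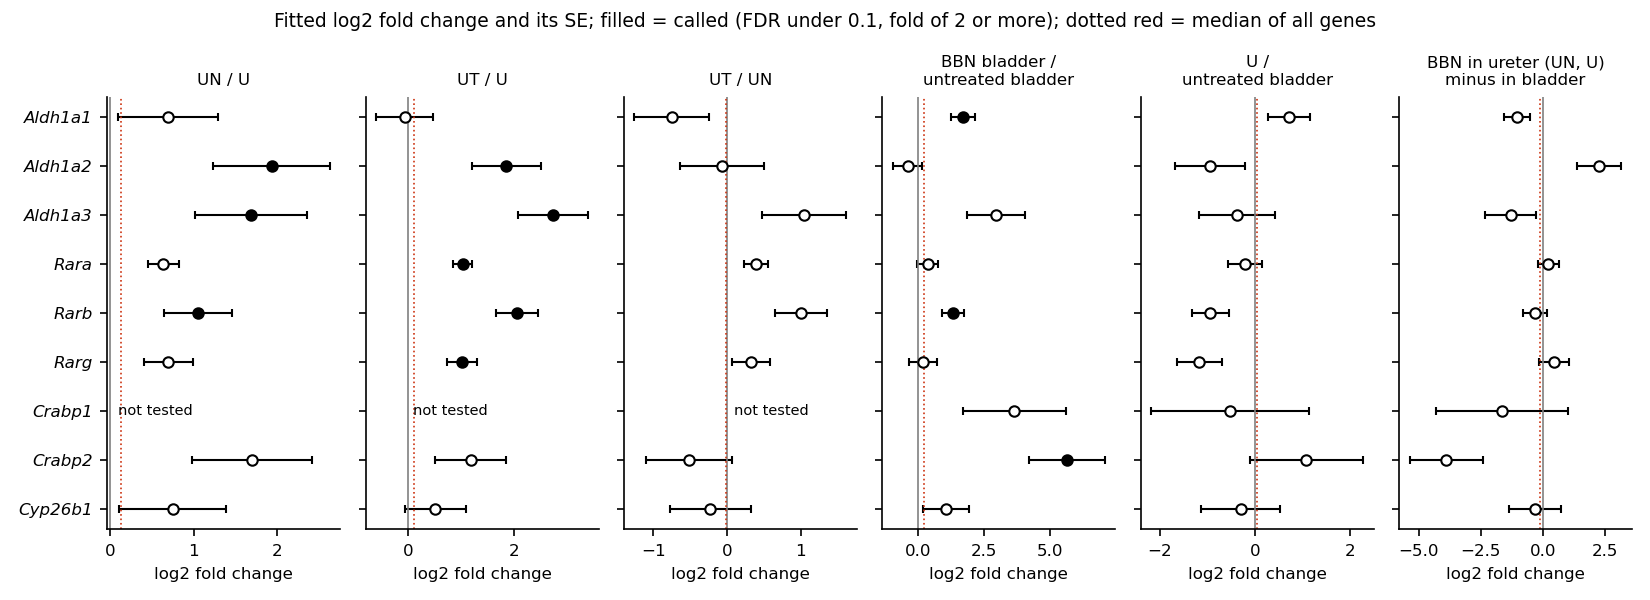
Log2 fold change of each tested gene in 6 comparisons, with its SE as a bar, filled where the call rule was passed and with the median of all genes tested as a dotted red line. The filled points of UN against U and UT against U lie to the right of that line, and no point is filled in UT against UN.

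Aldh1a1, which oxidizes retinaldehyde and is a known marker of stem-like cells in many epithelia, had a lowest, median and highest level of 22.5, 39.7 and 68.6 CPM in U, of 32.9, 70.6 and 137 in UN and of 0.288, 40.5 and 112 in UT. The lowest UT value was that of UT 2, at 4 counts, and the ranges of the 3 ureter groups overlapped. The log2 fold change was 0.69 ± 0.60 (SE, adjusted p = 0.455) in UN against U and −0.75 ± 0.51 (adjusted p = 0.342) in UT against UN. In the bladder the levels were 30.3, 34.7 and 43.1 CPM in B and 27.8, 96.5 and 177 in BB, and here too 3 values for a group are its lowest, median and highest. Aldh1a1 was 1.71 ± 0.47 higher in BB on the log2 scale (adjusted p = 0.0325), and without any 1 B library its adjusted p was 0.130 to 0.198. It shares 151 of its 2493 distinct transcript words of 50 bases (6.06%) with Aldh1a7, a near copy that lies next to it on chromosome 19, so a few of its reads could have been split between them.

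Aldh1a2 is the main retinoic acid synthesis enzyme of the embryo and is known from mesenchymal and mesothelial cells. Its level was 4.02, 6.19 and 9.95 CPM in U, 2.55, 12.5 and 71.2 in UN and 4.42, 24.2 and 81.0 in UT. UN 2, UN 7 and UT 7 were the high libraries at 71.2, 59.0 and 81.0 CPM, and the groups overlapped. The rise over U was 1.93 ± 0.69 in UN (adjusted p = 0.0666) and 1.86 ± 0.66 in UT (adjusted p = 0.0248). The rise in UN was not called when any 1 of U 1L, U 1R, U 2L, U 3R, UN 2 or UN 7 was left out, and fell to 1.16 without UN 2 (adjusted p = 0.212). In UT it was called in all 32 alternatives, with values from 1.57 to 1.99. In the bladder its level was 10.5, 17.2 and 22.4 CPM in B and 0.947, 8.32 and 37.6 in BB, and the difference was −0.38 ± 0.56 (adjusted p = 0.682). The change with BBN was 2.27 ± 0.90 larger in the ureter than in the bladder, with an adjusted p of 0.290.

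Aldh1a3, the retinaldehyde dehydrogenase known from surface ectoderm and many carcinomas, had a level of 4.03, 5.58 and 13.4 CPM in U, 4.92, 21.5 and 45.2 in UN and 9.41, 33.7 and 294.8 in UT, where UT 2 was the highest. The rise over U was 1.69 ± 0.67 in UN (adjusted p = 0.0948) and 2.74 ± 0.66 in UT (adjusted p = 0.0023). The rise in UN was lost when any 1 of 11 libraries was left out, U 1L, U 1R, U 2L, U 2R, U 3L, UN 3, UN 7, UT 3, UT 5R, UT 8 or UT 9, with values of 1.47 to 1.82 and an adjusted p of 0.101 to 0.191. In the bladder, B held 9.39, 11.01 and 15.4 CPM and BB ran from 1.53 to 317.6 with a median of 36.95. BB 7 and BB 2, at 317.6 and 293.3 CPM, stood above the rest. The log2 fold change in BB was 2.96 ± 1.10 but its adjusted p was 0.109, and it was called without BB 10, BB 3 or BB 4 (adjusted p from 0.0458 to 0.0950). It was called in 7 of 19 alternatives, among them DESeq2 (adjusted p = 0.00423), RLE normalization (0.0977), leaving out the libraries of low RNA integrity (3.33, adjusted p = 0.0300) and RNA integrity as a covariate (3.21, adjusted p = 0.0237).

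Among the 3 enzymes the largest share of transcript moved between groups. Shares are given per kilobase of exon, as percent of the summed CPM per kilobase of Aldh1a1, Aldh1a2 and Aldh1a3. Aldh1a1 was the highest of the 3 in 6 of 6 U libraries, in 5 of 7 UN and in 4 of 11 UT libraries, with median shares of 64.8%, 45.1% and 36.6%. Aldh1a2 was the highest in 5 of 11 UT libraries and Aldh1a3 in 2, one of them UT 2, where Aldh1a3 took 76.1% and Aldh1a1 0.0696%. The untreated bladder differed from the untreated ureter, since Aldh1a2 held 36.3% to 47.1% there and 16.02% to 28.3% in U. In BB, Aldh1a1 was the highest in 8 of 10 libraries and Aldh1a3 in 2. The summed level of the 3 enzymes was 7.26 to 20.6 CPM per kilobase in U and 12.3 to 83.8 in UT.

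**Figure D3:**
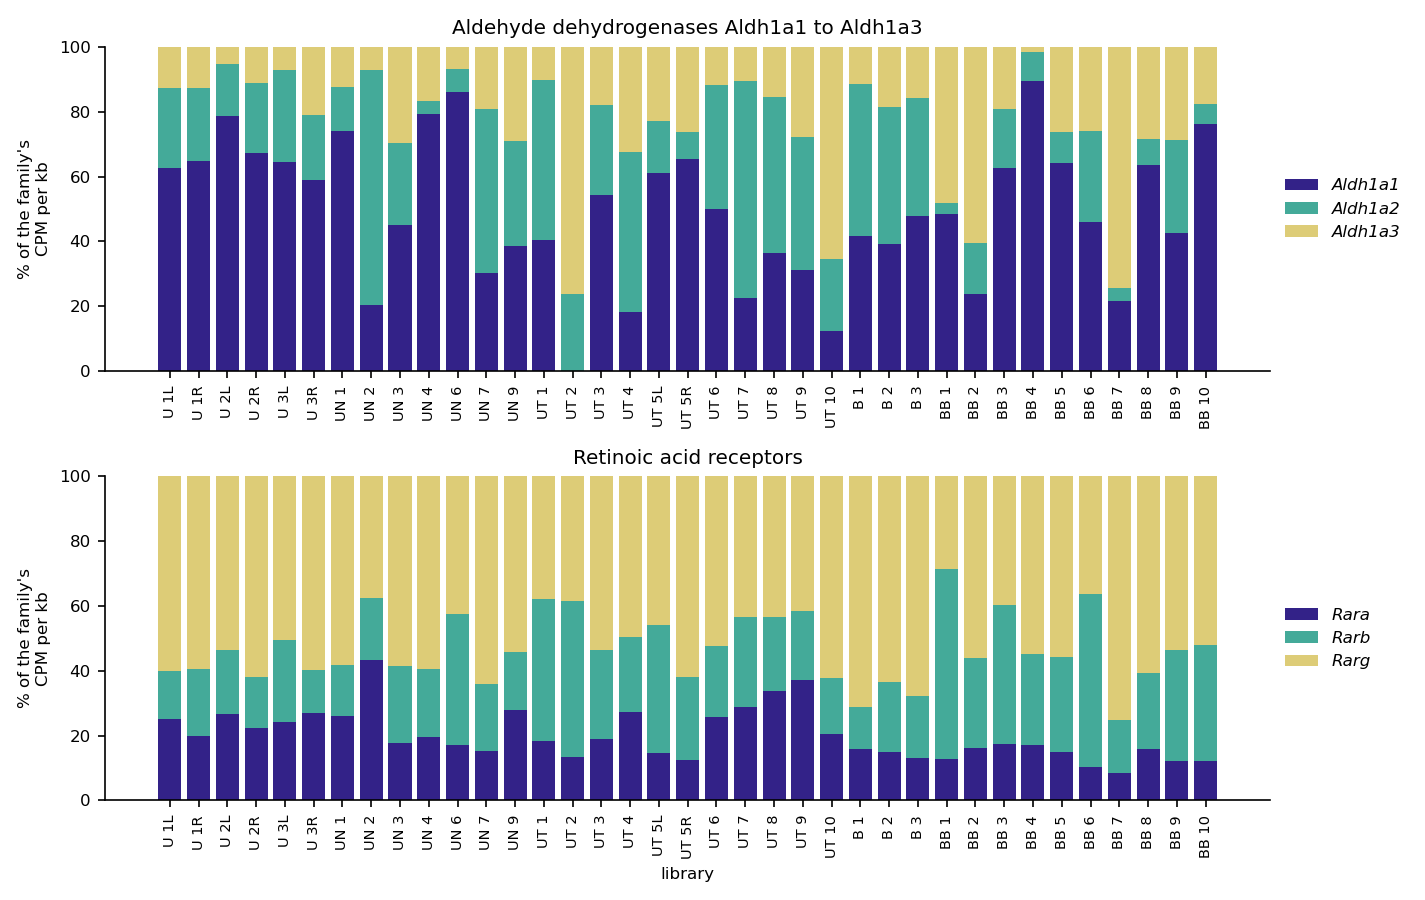
Share of each gene, in percent of the summed CPM per kilobase of exon, of the 3 Aldh1a enzymes and of the 3 retinoic acid receptors in each of the 37 libraries. Aldh1a1 fills the largest part of the bar in all 6 U libraries, and Rarg in all 6 U and all 3 B libraries.

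Rara, Rarb and Rarg are the retinoic acid receptors, and all of them were higher in UT than in U. Rara, the widely expressed member, had 4.94, 5.58 and 7.01 CPM in U, 3.85, 9.75 and 13.9 in UN and 11.1, 14.2 and 19.3 in UT. All 11 UT libraries lay above the highest U library. Its log2 fold change in UT was 1.03 ± 0.17 over U (adjusted p = 0.000133), close to the 2-fold limit, and without U 1R or UN 6 it was 0.985 to 0.999 and not called. With RLE normalization it was 0.9991 and not called either. UN against U gave 0.64 ± 0.19 with an adjusted p of 0.0251, a change under 2-fold. In the bladder, B held 8.12, 8.79 and 8.92 CPM and BB 2.37, 11.03 and 18.9, and the difference of 0.38 ± 0.40 was not past the threshold (adjusted p = 0.550).

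Rarb had 4.20, 4.80 and 6.9005 CPM in U, 5.39, 10.2 and 20.4 in UN and 7.71, 16.8 and 71.6 in UT. UT 2 was the highest at 71.6 CPM and every UT library lay above every U library. Rarb rose by 2.06 ± 0.40 in UT over U (adjusted p = 0.00039) and kept its call in all 32 alternatives, with values from 1.76 to 2.19. In UN over U it rose by 1.05 ± 0.41 (adjusted p = 0.0895), a call lost without any 1 of U 1L, U 1R, U 2L, U 2R, U 3R, UN 3, UN 6, UN 7 or UT 3 (0.87 to 1.09, adjusted p from 0.101 to 0.171). UT over UN gave 1.01 ± 0.36 with an adjusted p of 0.103, and was called in 9 of 33 alternatives. These included leaving out UN 3, UN 7, UT 6, UT 7, UT 8 or UT 9 (1.06 to 1.11, adjusted p from 0.048 to 0.0994). In the bladder Rarb was at 8.85, 14.6 and 15.5 CPM in B and at 5.88, 30.6 and 54.8 in BB, and rose by 1.34 ± 0.42 (adjusted p = 0.0581), with an adjusted p of 0.193 to 0.279 without any 1 B library. With no filter on low counts the rise was 1.29 and not called (edgeR adjusted p = 0.109). U over B was at −0.93 ± 0.38 (adjusted p = 0.120), and at −1.11 and called without U 3L (adjusted p = 0.0700).

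The Rarb gene spans chr14:16430839-16819156 in GRCm38, and 34.1% of its exon bases (1793 of 5265) overlap exons of Top2b on the opposite strand. The library kit does not mark strand, so reads in that overlap cannot be told apart and the Rarb counts are uncertain to that extent. Top2b, a DNA topoisomerase, was itself not called in these comparisons. Its log2 fold change was 0.43 in UT over UN (adjusted p = 0.201), −0.0041 in UN over U (adjusted p = 0.993) and 0.43 in UT over U (adjusted p = 0.122).

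Rarg is the receptor known from stratified epithelia, and per kilobase of exon it was the highest receptor in 6 of 6 U, 6 of 7 UN, 9 of 11 UT, 7 of 10 BB and 3 of 3 B libraries. Its level was 11.1, 14.5 and 15.3 CPM in U, 8.50, 22.8 and 51.4 in UN and 12.1, 32.4 and 56.1 in UT, and the groups overlapped. In UT it rose by 1.02 ± 0.28 over U (adjusted p = 0.00474), and without any 1 of U 2L, U 3L, UN 6, UT 10, UT 2 or UT 5R the value was 0.92 to 0.997, under the 2-fold limit. DESeq2 and RLE normalization gave 0.987 and 0.986, also under it. In UN over U the value was 0.70 ± 0.29 (adjusted p = 0.115). B was at 36.5, 39.4 and 41.6 CPM, above all U libraries, and BB ran from 5.21 to 86.5 with a median of 51.9. BB 1, BB 3 and BB 4, the bladder libraries of low RNA integrity, held the 3 lowest values. U against B was −1.17 ± 0.48 (adjusted p = 0.120). When only U and B were fitted it was called at −1.16, without and with the mouse as a block (adjusted p = 2.31e-06 and 1.12e-05). It was also called at −1.23 to −1.17 when BB 1, BB 3, BB 4, BB 6, BB 7, UN 2 or UN 6 was left out.

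Rarb took a median of 17.7% of the receptor transcripts in U, 20.6% in UN and 25.7% in UT, per kilobase of exon. In B the median was 19.2% and in BB 31.8%, with single libraries up to 58.8%, in BB 1. BB 6 and BB 3 followed at 53.5% and 42.6%. BB 1 and BB 3 are of low RNA integrity, as is BB 4, which was at 28.3%. The summed receptor level was 4.88 to 5.98 CPM per kilobase in U and 6.85 to 28.2 in UT, so the 2 ranges did not overlap. It was 12.98 to 14.4 in B and 3.95 to 29.1 in BB, where BB 4, BB 1 and BB 3 were lowest at 3.95, 4.28 and 5.14.

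Crabp2, the carrier that delivers retinoic acid to its receptors, was low in untreated tissue, at 0.693, 0.994 and 1.46 CPM in U and at 0.542, 0.666 and 0.697 in B. BB held a median of 13.5 CPM and a highest value of 90.5, in BB 7, while BB 3 had no count. BB was 5.62 ± 1.43 higher than B on the log2 scale (adjusted p = 0.0213), with an adjusted p of 0.117 to 0.1251 without any 1 B library. In the ureter the levels were 0.225, 0.912 and 20.8 CPM in UN and 0.463, 3.08 and 6.23 in UT. UN 7, at 20.8 CPM, was far above the other UN libraries, and several values changed without it. UN over U was 1.70 ± 0.72 (adjusted p = 0.116) and was called without UN 2, UN 4, UN 6, UN 9 or UT 10 (adjusted p from 0.052 to 0.0994), while without UN 7 it was at 0.36 and not called. UT over U was 1.19 ± 0.66 (adjusted p = 0.150). The first was called by DESeq2 (1.63, adjusted p = 0.0752), and the second with only UT and U fitted (1.18, adjusted p = 0.0323). Without UN 7, UT over UN turned from −0.52 ± 0.59 (adjusted p = 0.583) to 0.82 (adjusted p = 0.255), and UT over U was called (adjusted p = 0.0602). The change with BBN in the ureter minus that in the bladder was −3.89 ± 1.48 on the log2 scale, with an adjusted p of 0.266. Without UN 7 this difference was −5.30 and was called (adjusted p = 0.0529). U over B was 1.08 ± 1.19 (adjusted p = 0.678), and it was called at 1.10 when only U and B were fitted, without and with the mouse as a block (adjusted p = 0.0220 and 0.0383).

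Crabp1, the other carrier, was nearly absent at this depth. It had 0 to 4 counts per library in UT, 0 to 3 in UN, 0 to 1 in U, 0 to 9 in BB and 0 to 2 in B, and no count in 3, 4, 4, 2 and 2 libraries of these groups. Pooled over libraries, 32 counts in BB stood against 2 in B, a ratio per total count of 6.61 with an exact 95% counting interval of 1.69 to 56.9. BB 1, BB 3 and BB 4, the bladder libraries of low RNA integrity, held 8, 4 and 9 of the 32 counts. The interval covers counting error alone, and edgeR gave 3.64 ± 1.95 with an adjusted p of 0.218. DESeq2 gave 4.23 and a call (adjusted p = 0.0831).

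Cyp26b1, the degrading enzyme, stayed low in every group. Its level was 0.191, 1.05 and 1.22 CPM in U, 0.403, 0.914 and 3.64 in UN, 0.316, 1.32 and 2.91 in UT, 0.558, 1.56 and 1.86 in B and 0.543, 1.77 and 4.10 in BB. The ranges of all groups overlapped and no comparison was past the threshold. Its log2 fold change was 0.75 ± 0.64 in UN over U (adjusted p = 0.448), where UN 6, at 3.64 CPM, was the highest library, and 1.08 ± 0.87 in BB over B (adjusted p = 0.415). BB 1, BB 3 and UN 6, the libraries with the highest levels of the series at 4.10, 3.94 and 3.64 CPM, are of low RNA integrity. Without the libraries of low integrity, BB over B was at 0.0964.

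Ordered by mean log2(CPM + 1), most neighbouring groups did not differ beyond the larger SD of the pair. The exceptions were B above U for Aldh1a3, UT above UN for Rara, UN above U for Rarb, BB above UT for Crabp2 and U above B for Crabp2. The ranges of the libraries overlapped in each of these pairs of neighbours too.

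In 7 mice the cancerous and the noncancerous side came from the same animal, which allows a comparison within mice. Aldh1a2, Rara and Rarb were each higher on the cancerous side in 6 of 7 mice, and Crabp2 in 5. How many of all genes were so was not counted. The mean difference in log2(CPM + 1) was 1.05 ± 1.36 (SD, n = 7) for Aldh1a2, 0.63 ± 0.62 for Rara, 1.01 ± 1.27 for Rarb and 0.26 ± 1.59 for Crabp2. Rarg was higher in 4 mice and Cyp26b1 in 4, Aldh1a3 in 3 and Aldh1a1 in 2, where Aldh1a1 had a mean of −1.30 ± 1.96. Mouse 2 held the largest difference for Aldh1a1, Aldh1a3, Rarb and Rarg, mouse 4 for Aldh1a2, mouse 6 for Rara and Cyp26b1, and mouse 7 for Crabp2. In mouse 2, Aldh1a1 went from 43.6 CPM on the noncancerous side to 0.288 on the cancerous side, Aldh1a3 from 14.3 to 294.8 and Rarb from 5.39 to 71.6. UN 2 is the library nearly without urothelial transcripts, and UT 2 held the highest basal and squamous marker sum of UT at 6132 CPM and the lowest adipocyte sum at 31.3. UN 6, the noncancerous side of mouse 6, is of low RNA integrity and held the fewest counts of UN, 4675081. These differences are of plain CPM. The TMM factor, by which the fits scale library totals, was 0.594 for UN 6 and 1.16 for UT 6.

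**Figure D4:**
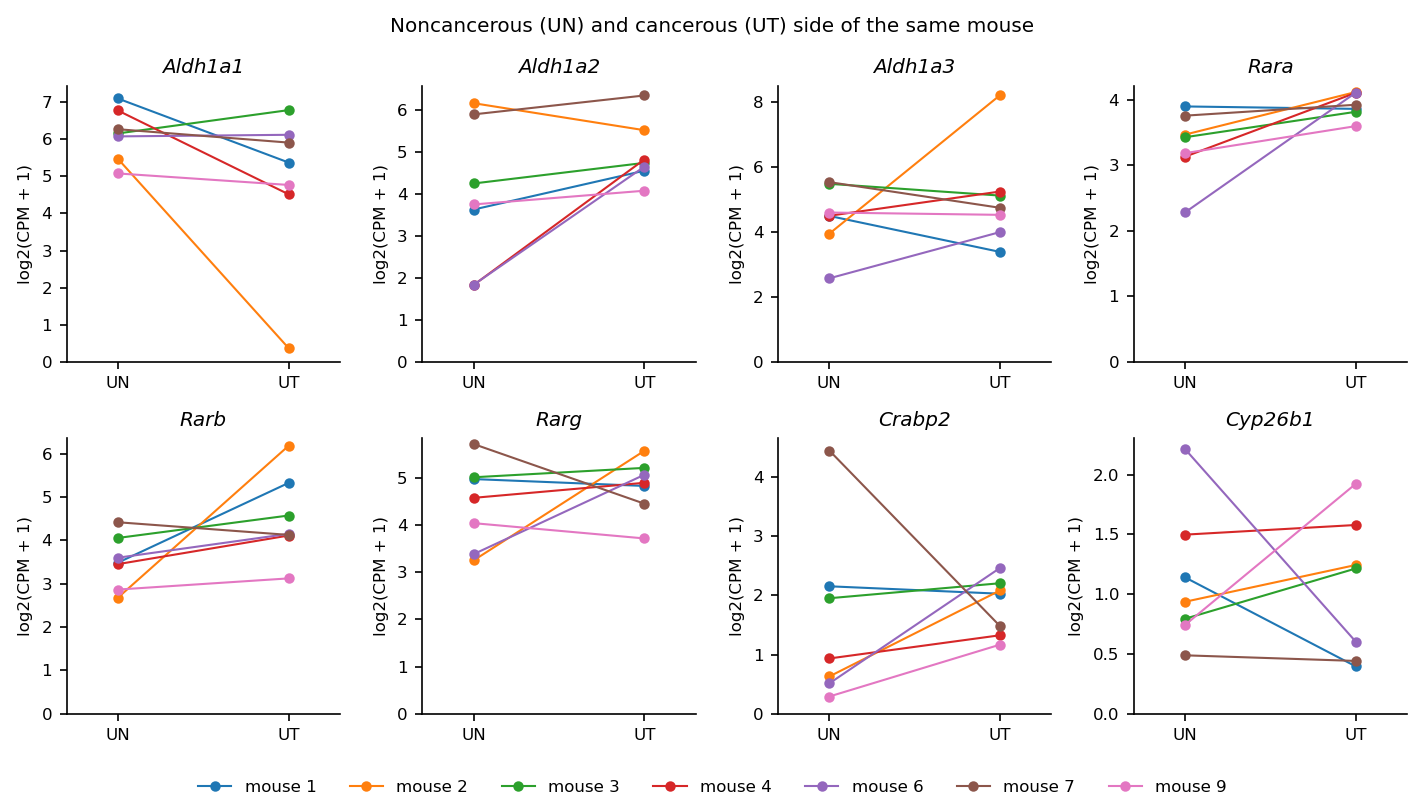
Level of 8 of the genes as log2(CPM + 1) on the noncancerous (UN) and the cancerous (UT) side of the same 7 mice, with a line for each mouse. The lines of Rara rise in 6 of 7 mice, and those of Aldh1a1 fall in 5, steepest in mouse 2.

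The makeup of the tissue moved along with these differences. A sum of 6 adipocyte genes was 38313 to 60609 CPM in U, 8845 to 52913 in UN and 31.3 to 32485 in UT, and 6 of 6 were lower in UT than in U. Basal and squamous keratinocyte genes summed over 5 genes gave 7.12 to 12.2 CPM in U, 8.12 to 3378 in UN, 156 to 6132 in UT, 13.5 to 25.3 in B and 221 to 14169 in BB. All 5 rose in UN and UT over U and in BB over B, and BB 7, the highest library for this sum, also held the highest Crabp2 and Aldh1a3. Of 6 smooth muscle genes, 5 were lower in UT than in U, of 5 macrophage genes 3 were higher, and of 6 fibroblast genes 2 were higher, where 30.9% of all genes were called. In UN over U, 3 of 5 macrophage genes were higher too, where 13.7% of all genes were called. There, 0 of the 6 smooth muscle, 6 fibroblast and 6 adipocyte genes were called. Of 5 mesothelial genes, 4 were tested, and 1 was higher (Msln, by 5.001, adjusted p = 0.00022) and 2 were lower in UT than in U, with a sum of 17.8 to 516 CPM in UT and 69.5 to 103 in U. In BB over B, 4 of 7 urothelial genes and 3 of 6 fibroblast genes fell, where 13.3% of all genes were called. No gene of the adipocyte, basal and squamous, urothelial or kidney tubule lists was at 0 in every library of the series. In bulk tissue, fewer cells of a type and less RNA per cell cannot be told apart, and the part of these cell types in the retinoid gene differences was not tested.

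The rest of the pathway was read from a list of 45 other retinoid genes. In UN over U, 6 of 36 tested rose and 0 fell, where 13.7% of all genes were called, and their median log2 fold change was 0.11 where that of all genes was 0.13. In UT over U, 7 rose and 8 fell (median −0.07, all genes 0.11), where 30.9% of all genes were called. In BB over B, 4 rose and 4 fell of 41 tested (median 0.29, all genes 0.25), where 13.3% were called. In UT against UN 0 rose and 1 fell, Dgat1, an acyltransferase that also makes triglyceride, by 1.37 ± 0.47 (adjusted p = 0.0964), a call lost in 18 of 24 cases with 1 ureter library left out (adjusted p from 0.104 to 0.237). It was also lost with no filter on low counts, without the libraries of low RNA integrity, with a random effect of the mouse, with RNA integrity as a covariate, and with only UT and UN fitted, without and with the mouse as a block (adjusted p from 0.108 to 0.771). Between U and B, 5 were higher in U and 4 lower of 43 tested (median 0.12, all genes 0.04), where 14.9% were called.

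Uptake and storage genes were among those called. Stra6, the cell surface receptor that takes up retinol, was at 0.0651, 0.292 and 0.372 CPM in U, at 0.548, 14.2 and 199 in UN and at 6.24, 47.3 and 245 in UT. Every UN and every UT library lay above every U library. It rose by 7.05 ± 1.28 in UN (adjusted p = 0.00152), by 7.54 ± 1.28 in UT (adjusted p = 0.000147) and by 6.68 ± 1.59 in BB over B (adjusted p = 0.0145). Stra6l, a related receptor, had 1 count in all U libraries, 124 in UN and 458 in UT. The ratio per total count was 140.7 in UN (exact 95% counting interval 24.8 to 5603) and 282.6 in UT (50.5 to 11188). These intervals cover counting error alone and not the spread between libraries. The fitted log2 fold change ran from 4.51 to 7.28 over 31 alternatives in UN over U. In UT over U it ran from 5.47 to 8.29 over 32, and it was called in each. UN 3 and UT 4 held the most counts, and without them, a setting chosen after the data were seen, the ratios were 76.3 (13.1 to 3069) and 185.8 (33.1 to 7365). Lrat, which esterifies retinol for storage, rose by 2.25 ± 0.70 in UT over U (adjusted p = 0.0123) and by 2.87 ± 0.79 in BB over B (adjusted p = 0.0328). Rbp2, a cellular retinol carrier of the intestine, had no count in B and was at least 12.3-fold higher in BB, by its mean against a floor of 3 counts in the shallowest B library. Without B 1 the adjusted p of Stra6 in BB over B was 0.1003, and without any 1 B library that of Lrat was 0.119 to 0.184. When the mouse was a random effect, Stra6 in UN over U was at 5.49 (adjusted p = 0.115) and Lrat in UT over U at 1.44 (adjusted p = 0.224), and neither was called.

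Genes of retinol carriers fell in UT over U. Rbp4, the serum retinol carrier that adipose tissue also makes, fell by 3.31 ± 0.91 (adjusted p = 0.00533), Ttr, its partner in serum, by 3.10 ± 1.04 (adjusted p = 0.0185) and Rbp7, a carrier inside cells, by 1.90 ± 0.84 (adjusted p = 0.0676). Rbp4, Rbp7, Dgat1 and Rxrg were higher in U than in B, by 4.96, 4.67, 4.24 and 4.74 on the log2 scale, with adjusted p of 0.0178, 0.0503, 4.88e-05 and 0.00313. U is the group with the highest adipocyte sum, and 6 of 6 adipocyte genes were higher in U than in B. Rxrg, a retinoid X receptor, also fell by 2.25 ± 0.83 in UT over U (adjusted p = 0.0303), and Scarb1, a lipoprotein receptor that takes up carotenoids, by 1.22 ± 0.32 (adjusted p = 0.00389). Without U 1L, U 1R or U 3L the adjusted p of Rbp7 in UT over U was 0.101 to 0.104, and without any 1 B library that of Rbp7 in U over B was 0.124 to 0.193.

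The retinol oxidation step was mixed. Rdh10, the main retinol dehydrogenase of the embryo, was at 17.7, 19.4 and 23.4 CPM in U and 28.6, 66.5 and 80.0 in UT, so the groups did not overlap, and it rose by 1.297 ± 0.23 (adjusted p = 0.000207). In UT over UN its value was 0.87 ± 0.21 with an adjusted p of 0.0728, under the 2-fold limit. Rdh1 rose by 3.06 ± 0.90 in UN over U (adjusted p = 0.0267), and Dhrs9 by 3.41 ± 0.93 in BB over B (adjusted p = 0.0314). Adh7, an alcohol dehydrogenase of stratified epithelia, rose by 2.50 ± 0.88 in UN (adjusted p = 0.0600) and by 3.13 ± 0.87 in UT (adjusted p = 0.0059). Adh1 fell by 1.24 ± 0.55 in UT over U (adjusted p = 0.0705) and by 3.04 ± 0.37 in BB over B (adjusted p = 0.000124). Dhrs3, which returns retinaldehyde to retinol, fell by 1.10 ± 0.36 in BB over B (adjusted p = 0.0705), as did Scarb1 by 1.51 ± 0.44 (adjusted p = 0.0438). The bladder calls of Dhrs9, Scarb1 and Dhrs3 were lost without any 1 B library, with adjusted p from 0.130 to 0.281, and Dhrs3 without BB 3 was at −0.98, under the 2-fold limit. Without the libraries of low RNA integrity, and with integrity as a covariate, Dhrs3 was at −0.87 and −0.88, also under it. Adh7 in UN over U was not called without UN 3, UN 7, U 1L, U 2L or U 3R (adjusted p from 0.103 to 0.122), nor was Adh1 in UT over U without UT 5L, U 1L, U 1R, U 2R or U 3L (0.101 to 0.109). When the mouse was a random effect, Rdh1 and Adh7 in UN over U were at 2.35 and 1.60 (adjusted p = 0.156 and 0.371) and Adh1 in UT over U at −2.06 (adjusted p = 0.102), and none of them was called. With RNA integrity as a covariate Adh1 in UT over U was at −1.10 (adjusted p = 0.135).

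Between the untreated organs, Stra6l, Adh7, Rdh12 and Adh1 were lower in U than in B, by −5.36, −2.91, −1.88 and −1.50 on the log2 scale, with adjusted p of 0.00297, 0.0597, 0.0288 and 0.0151. Fabp5, a lipid carrier that can also bind retinoic acid, was 2.64 ± 0.91 higher in U (adjusted p = 0.0579). The calls of Adh7 and Fabp5 were lost without any 1 B library, or without U 2L for Adh7 and U 3L for Fabp5 (adjusted p from 0.102 to 0.201), and that of Rdh12 without B 1 (adjusted p = 0.136). Adh7 was also not called with a random effect of the mouse (adjusted p = 0.176).

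Cyp26a1, whose promoter is printed above with that of Rarb, had 3 counts in all U libraries, 85 in UN and 110 in UT. The ratio per total count was 32.2 in UN (exact 95% counting interval 10.6 to 159) and 22.6 in UT (7.54 to 111.4), and it was called in both (adjusted p = 0.0113 and 0.0118), though not in UN with the mouse as a random effect (adjusted p = 0.129). The highest library was UN 2, at 4.66 CPM, and it held 51 of the 85 counts of UN. Without UN 2 the ratio in UN was 14.8 (4.67 to 75.5), a setting chosen after the data were seen. Cyp26c1, the third enzyme of this family, had no count in 8 of 11 UT, 5 of 7 UN, 5 of 6 U, 7 of 10 BB and 3 of 3 B libraries. Aldh1a7, the near copy of Aldh1a1, fell by 2.15 ± 0.66 in UT over U (adjusted p = 0.0116), while Aldh1a1 was at −0.06 ± 0.54 there. Aldh8a1, another retinaldehyde dehydrogenase, had a median of 0.0779 CPM in UT and a highest value of 98.2, in UT 4, the library with kidney tubule transcripts. Of the receptor partners, Rxra fell by 1.34 ± 0.28 in BB over B (adjusted p = 0.00668) and was at −0.86 ± 0.18 in UT over U (adjusted p = 0.000604), under the 2-fold limit. Rxrb was not called in any comparison.

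**Figure D5:**
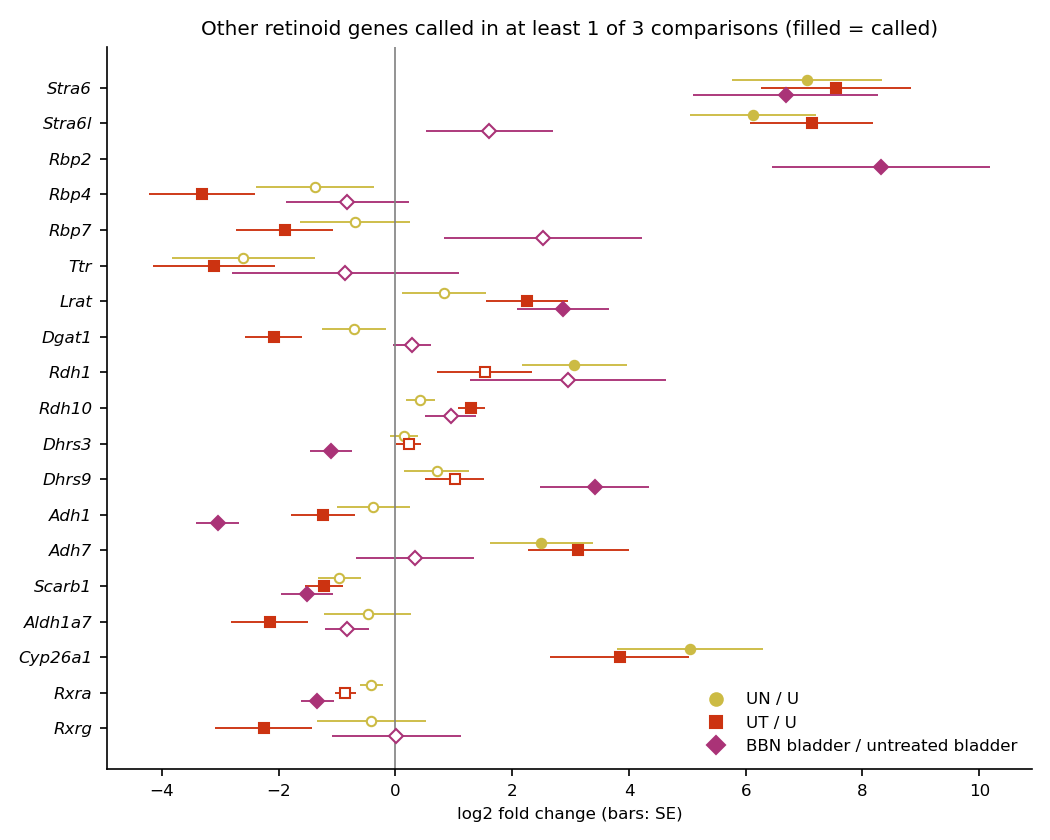
Log2 fold change of 19 of the 20 other retinoid genes that were called in at least 1 of UN against U, UT against U and BB against B, with the SE as a bar and filled points for calls. Stra6 lies near 7 in all 3 comparisons, while Rbp4, Ttr and Dgat1 lie below 0 in UT against U.

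A list of 12 genes known to respond to retinoic acid did not hold Rarb and Cyp26a1, which are described above and rose in UN and in UT over U. Of the 12, 9 were tested in the ureter and 0 were called in UN over U, where 13.7% of all genes were, and the median log2 fold change was 0.02 and that of all genes 0.13. In UT over U, 1 rose and 2 fell, where 30.9% of all genes were called, with a median of −0.31. There, Hoxd4 rose by 1.02 ± 0.41 (adjusted p = 0.0461), while Meis1 fell by 1.32 ± 0.29 (adjusted p = 0.00121) and Hoxa4 by 1.80 ± 0.64 (adjusted p = 0.0269). The call of Hoxd4 was lost without UT 1, UT 10, UT 2, UT 3, UN 6, U 2L, U 2R or U 3L (0.76 to 0.9999, under the 2-fold limit), and with a random effect of the mouse (0.72, adjusted p = 0.177). DESeq2 and RLE normalization gave 0.986 and 0.984 for Hoxd4, also under the limit. In BB over B, Rarres1 rose by 2.44 ± 0.76 (adjusted p = 0.0573) and Meis1 fell by 1.24 ± 0.43 (adjusted p = 0.0899). Both bladder calls were lost without any 1 B library, and that of Meis1 also without BB 5, BB 6 or BB 9 (adjusted p from 0.104 to 0.286). Meis1 was at −0.94 without the libraries of low RNA integrity and at −0.99 with integrity as a covariate, under the 2-fold limit. Rarres1 was also 5.06 ± 1.01 higher in U than in B (adjusted p = 0.00136).

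The genes whose levels ran most like those of each member over the 37 libraries are given as a description, by Spearman correlation of log2(CPM + 1) over 15374 genes with a mean of at least 1 CPM. Rarg ran with Rab10 (0.962), Sdc1 (0.956) and Trim16 (0.953), and Rarb with Blnk (0.919), Mal2 (0.911) and Ifngr2 (0.905). Rara ran with Gnai2 (0.916), Dnajb11 (0.902) and Arhgef2 (0.895). Among the enzymes, Aldh1a3 ran with the cell division genes Anln (0.887) and Cdc20 (0.884) and with Tgm1 (0.879), a crosslinking enzyme of keratinizing epithelium. Aldh1a2 ran with Gatm (0.848) and with the matrix genes Efemp2 (0.831) and Bgn (0.826). The values were lower for Crabp2, with Efna3 (0.812), Mall (0.783) and Txndc9 (0.776), for Aldh1a1, with Prr32 (0.766), Scn3b (0.694) and Wnt6 (0.678), and for Cyp26b1, with Ccdc82 (0.650), Tmppe (0.621) and Slco4c1 (0.617).

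These libraries share group, depth and RNA integrity, so the same was done with group means removed, by Pearson correlation. Rarg then ran with Pla2g4a (0.967), Src (0.961) and Rab10 (0.957), and Rara with Atp6ap1 (0.932), Mars (0.929) and Elmo2 (0.928). Rarb ran with Ifngr2 (0.840), Plekhs1 (0.816) and Siah1b (0.814). Aldh1a1 ran with the glutathione transferases Gsta3 (0.866) and Gstm1 (0.812) and with Scara5 (0.814), and Aldh1a2 with Fstl1 (0.849), the collagen gene Col3a1 (0.819) and Plod3 (0.793). Aldh1a3 ran with Mxd1 (0.859), Dusp6 (0.839) and Afap1l1 (0.837), Crabp2 with Il1r2 (0.755), Hspb1 (0.744) and Pitx1 (0.739), and Cyp26b1 with Ccdc82 (0.673) and Trpc1 (0.667). Rab10 and Ifngr2 were among the 3 most alike by both measures, for Rarg and Rarb, and Ccdc82 for Cyp26b1.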

How the data were processed

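RNA from tissue kept in RNAlater was extracted with the miRNeasy kit, and libraries were made with the SMARTer HT and Nextera XT kits, which do not mark strand. The submitters' processing notes name TopHat2 2.1.1, Cuffdiff 2.2.1 and the genome GRCm38/mm10. The authors deposited estimated counts per gene, not normalized, for all 37 libraries in 1 table. Fractional values made up 21.1% of the values above 0, and they were rounded to whole counts before testing. No column was without a sample.

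CPM was taken over the total count of each library. Genes passing edgeR's expression filter were tested by the edgeR 4.0.16 quasi-likelihood test (R 4.3.3) with TMM normalization, in 3 fits: UT, UN and U, BB and B, and UN, U, BB and B. TMM also corrects for a few abundant genes, so fold changes can differ from CPM ratios. Calls needed a Benjamini-Hochberg adjusted p under 0.1 over all genes and a fold of at least 2. The SE is the size of the log2 fold change divided by the square root of the F value. Groups were taken from the labels, and p-values measure the spread between these libraries, of which U holds both ureters of 3 mice and UT both ureters of 1 mouse.

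UT and UN carry the same mouse number and come from the same animal in 7 mice, as do U and B in 3. Deviations of UT and UN from their group means correlated with a median of 0.0443 within mice (7 pairs, −0.174 to 0.656) and −0.0112 between mice. Fits with the mouse as a block, as a random effect, with DESeq2 1.42.0, with RLE normalization, with no filter on low counts, with RNA integrity as a covariate, and without single or doubtful libraries were alternatives. No 2 libraries agreed within counting noise (lowest chi-square per degree of freedom 7.37). The fits were tested on simulated counts first. Of planted changes above the 2-fold limit, they recovered 86.5% in UT against UN, 80% in UN against U and 79.5% in UT against U. In BB against B 18% were recovered, in U against B 41% and for the change by organ 18%. Genes not called in these comparisons may thus still differ.

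The 9 genes are named by rule, along with the called genes of the retinoid and retinoic acid response lists and those of matching role, and the 3 genes most alike per member, except that 2 genes named by this rule are not reported here. Genes and lists were chosen with earlier results of these data known. Top2b was added after the annotation was seen. Gene positions are from GENCODE for GRCm38.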

Additional observations from a re-analysis of the deposited data

Results flagged for a closer look

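A library far from the others was looked for in 30 tests. Each test took total counts or the level of 1 gene within a group of 4 to 10 libraries. Chance alone flags a library in about 1 of 20 such tests, so flags among 30 can come from chance. UT, with 11 libraries, and B, with 3, lie outside this size and were not tested. UN 6 had a total count of 4675000 (rounded), the lowest of UN and apart from the other UN libraries. The level of Crabp1 in UN 6 was 0.7152 on the log2(CPM + 1) scale, which rests on 3 counts in this shallow library of low RNA integrity.

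The change of Adh1 with BBN differed between the organs. The log2 fold change of UN over U was 2.666 higher than that of BB over B (edgeR interaction term, adjusted p = 0.00505). Adh1 ran from 1359 to 1459 CPM in B and from 58.3 to 227 in BB, with no overlap, and from 303 to 445 in U and 75.1 to 669 in UN.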

How the results depend on the processing

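Of 375 log2 fold changes of the 9 genes under alternatives that leave out no single library, 324 kept direction and call, and of 1152 with 1 library left out, 1070 did. The 3 bladders of B limit the bladder comparisons, and Crabp1 was limited by its counts. The cause of the changes below was not tested.

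Genes called in UT against UN (864) were 1391 with DESeq2, 1390 with no filter, 1683 without UT 9, 3 without libraries of RNA integrity under 5, 2 with a random effect of the mouse, 0 with RNA integrity as a covariate, 0 with these groups alone and 1 with the mouse number as a replicate block. The block is fitted on the compared groups alone. In U against B it gave 4602 genes and 2 of the 9 (4590 and 2 without it, 2802 and 0 with all 4 groups), and against the fit of the same groups alone it changed no call of the 9. In the other comparisons the counts that moved were UN against U, 1301 with the random effect, BB against B, 5799 with DESeq2, and the change by organ, 926 with DESeq2 and 896 without libraries of low integrity. Without single libraries the counts ran from 5 to 1854 for UT against UN, 1605 to 2682 for UN against U, 4619 to 5144 for UT against U, 1024 to 2711 for BB against B, 1633 to 3178 for U against B and 149 to 590 by organ.

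Of the 9 genes, the number called in UT against UN was 1 with DESeq2, no filter and without UT 9. In UN against U it was 1 with RLE, no filter and without libraries of low integrity, and 0 with the random effect. In UT against U it was 3 with RLE, without libraries of low integrity and with integrity as a covariate, and in BB against B 5 with DESeq2. In U against B it was 1 with DESeq2, RLE, without libraries of low integrity and without the bladder of mouse 6, and 2 with these groups alone and with the block, and by organ 1 with DESeq2. Without single libraries it ran from 0 to 1 for UT against UN, 0 to 4 for UN against U, 3 to 6 for UT against U, 0 to 4 for BB against B, and 0 to 1 for U against B and by organ.

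None of the values that changed sign was past the threshold. Without libraries of low integrity, Cyp26b1 was 0.47 in UT against UN and −0.16 in UN against U, and Rara was −0.00635 by organ. With the random effect, Aldh1a2 was 0.52, Crabp2 0.15 and Cyp26b1 0.0743 in UT against UN, and Crabp1 0.12 in U against B. With integrity as a covariate, Rarg was −0.003985 and Cyp26b1 0.34 in UT against UN, and Aldh1a1 0.0325 in UT against U. With the replicate block, Aldh1a2 was 0.90 and Crabp2 0.59 in UT against UN. With 1 library left out, Aldh1a1 in UT against U ran from −0.23 to 0.0835, above 0 without UT 2, UT 4, UT 10, U 2L or U 2R (from 0.0259). In UT against UN, Aldh1a2 ran from −0.35 to 0.70, above 0 without UN 2, UN 7, UT 5L, UT 5R or UT 9 (0.0295 without UT 9), Cyp26b1 from −0.43 to 0.47, above 0 without UN 6, and Crabp2 from −0.73 to 0.82, above 0 without UN 7. In U against B, Crabp1 ran from −1.07 to 1.81, above 0 without B 1, and Cyp26b1 from −0.67 to 0.0175, above 0 without B 2. By organ, Cyp26b1 ran from −1.01 to 0.0809, above 0 without B 1.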
